A study of Mus musculus with 4 samples.

Results

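Among 12211 single cells from 4 mouse livers, 68 met a rule on immune marker genes. Not all of them were immune cells by other genes, as given below. A cell was taken when it held at least 500 unique molecular identifiers (UMIs, counted transcripts), at least 4 UMIs summed over 12 immune genes, and fewer UMIs than that over 7 genes of other cell types. The 12 genes were Ptprc, Csf1r, Adgre1, Cd68, Lyz2, C1qa, C1qb, Cd79a, Cd79b, Ebf1, Skap1 and Cd3e. The 7 were Epcam, Krt19, Pkhd1, Cldn7, Reln, Col1a2 and Ptprb. The cells were then split by which markers led: 30 were myeloid, 35 were placed in the B class (Cd79a, Cd79b or Ebf1), 1 was in the T class (Skap1 or Cd3e) and 2 had no leading class. Levels of these 19 genes chose the cells, so they are given as a description. Some of them stayed in the fits over all genes below, and nothing is read from their tests.

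The libraries came from liver cells that the labels call biliary epithelial cells, the lining cells of bile ducts. All 4 mice carried Sox9EGFP, a genotype with a fluorescent protein named after Sox9, a gene of biliary cells. Sham surgery had been done in 2 mice and bile duct ligation (BDL), which blocks the outflow of bile, in the other 2, each 7 days before. Age, sex and how the cells were isolated are not given in the sources used here, so how immune cells came to be among them is not known, and each mouse gave 1 library (n = 2 mice in a group).

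The cell tables hold a group name of their own that goes against the sample label in 2 libraries: sham replicate 2 is named BDL there and BDL replicate 2 is named sham. Every group name here stands for the label. Sham replicate 1 and BDL replicate 1 are the libraries without that contradiction, and their values are given separately throughout. BDL replicate 2 alone had high Xist, the RNA that silences an X chromosome in female cells, at 1951 CPM (UMIs of a gene scaled to the same total in each library) in biliary cells against 8.01 to 9.65 CPM in the other 3 libraries. Depth moved with the group: the median cell had 3260 and 2610 UMIs after sham surgery but 7058 and 7793 after ligation. No barcode was shared by libraries.

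Macrophages are phagocytes that clear dying cells and debris. In the liver, resident Kupffer cells line the sinusoids and carry Clec4f, Vsig4, Timd4 and Marco, whereas monocytes arrive from blood with Ly6c2 and Ccr2 and can become macrophages. C1qa, C1qb and C1qc encode the chains of C1q, the recognition part of complement that many tissue macrophages make. Trem2, Gpnmb, Spp1 and Apoe are used as markers of lipid-associated macrophages, which gather around injured ducts and fat-laden tissue.

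The marker check went against the B label for most of the 35 cells, but not for most myeloid cells. Ebf1, a transcription factor of early B cells that fat and stromal precursors also use, was the only marker present in 26 of the 35 cells. In 26 of the 35, UMIs of 8 mesenchymal genes outnumbered those of 14 pan-leukocyte genes outside the rule, with 592 mesenchymal against 95 leukocyte UMIs in the class. In the myeloid class all 30 cells had more leukocyte than mesenchymal UMIs, 618 against 12. Biliary genes outnumbered leukocyte genes in 2 of the 30: a cell of 936 UMIs in sham replicate 2 (8 against 1) and the deepest one, of 12453 UMIs in BDL replicate 1 (118 against 30). Ptprc, the phosphatase CD45 on leukocytes, is a rule gene and so checks nothing here. As a description, it had a UMI in 24 of 30 myeloid cells and in 6 of 35 cells of the B class.

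**Figure D1:**
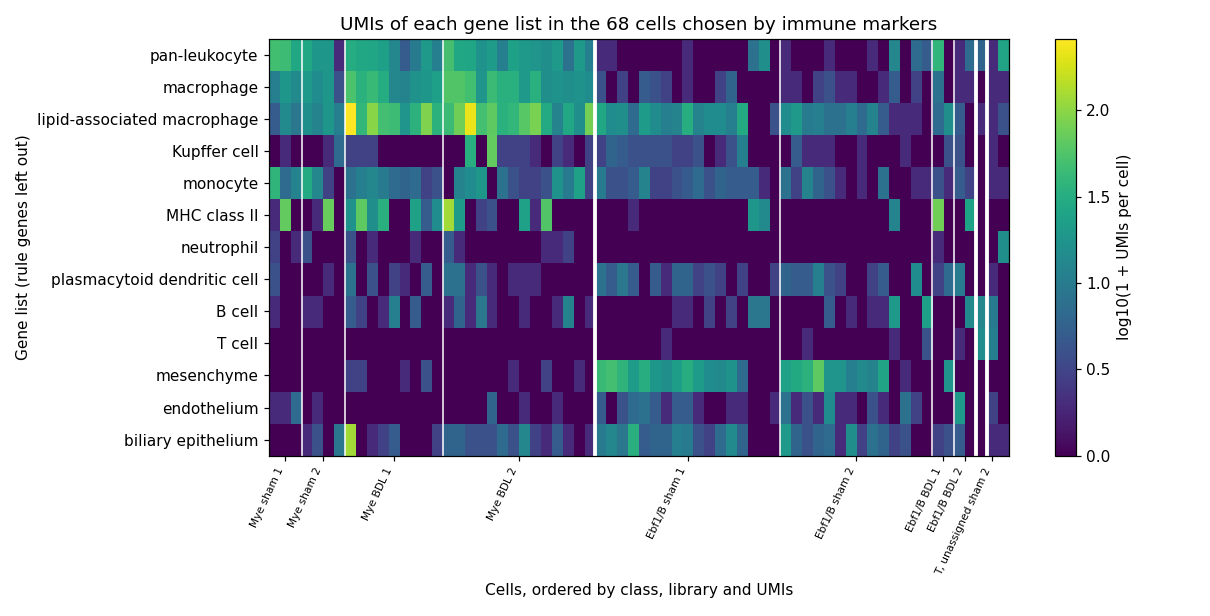
Each column is 1 of the 68 cells, ordered by class, library and UMIs, and each row is a gene list without the rule genes. Colour is log10(1 + UMIs). Mesenchymal UMIs fill the B class of the sham libraries and are nearly lacking in the 30 myeloid cells.

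The genes that led the 26 cells with Ebf1 alone were stromal. Plxna4, a semaphorin receptor, had 226 UMIs in 21 cells. Col3a1, a fibrillar collagen of connective tissue, had 178 UMIs in 20 cells. Prelp, a matrix proteoglycan, had 164 UMIs in 21 cells, and Dcn, the proteoglycan decorin, had 151 UMIs in 22. Cxcl12, a chemokine made by stromal cells, had 162 UMIs in 21 cells. Pdgfra, a receptor that marks fibroblasts, had 64 UMIs in 19 cells. UMIs of the 8 mesenchymal genes were in 11 of 13, 11 of 11, 1 of 1 and 0 of 1 of the 26 cells in sham replicates 1 and 2 and BDL replicates 1 and 2. The 26 are called Ebf1-led here, after the rule gene that chose them. They are not all alike: 1 of them, a cell of 1145 UMIs in sham replicate 1, had 8 UMIs of B cell genes and 0 of the mesenchymal genes.

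At least 8 UMIs of B cell genes outside the rule were held by 5 cells of the class, but also by 3 myeloid cells, the T class cell and 1 cell without a class. One in sham replicate 2 (882 UMIs) had 18 UMIs of Ebf1, 10 of Bach2 and 6 of Pax5, the factor that holds B cell identity, with 1 each of Cd79a and Cd79b. One in sham replicate 1 (904 UMIs) had 3 UMIs of Pax5, 5 of Ptprc and 3 of Ccr7, a receptor for lymph node homing. The one in BDL replicate 2 (1794 UMIs) had 5 UMIs of Pou2af1, a coactivator of B cells, and 3 of Bank1. The other 2 were in sham replicate 1 (1145 UMIs) and sham replicate 2 (1875 UMIs). These cells were chosen after their values were seen.

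Other members carried genes of other immune or vessel cells. A cell of sham replicate 2 (936 UMIs) that the rule put in the B class had 7 UMIs of Siglech and 4 of Irf8, genes of plasmacytoid dendritic cells. The T cell of sham replicate 2 (1896 UMIs) had 25 UMIs of Satb1, 6 of Skap1 and 6 of Cd247, a chain of the T cell receptor complex. One cell without a class (928 UMIs) had 12 UMIs of S100a9 and 9 of Acod1, genes of neutrophils and activated myeloid cells. The other (941 UMIs) had 9 of Bach2 and 5 of Lef1, lymphocyte genes. A cell of sham replicate 1 (770 UMIs) had 12 UMIs of Ccl21a and 6 of Mmrn1, genes of lymphatic vessels, and one of BDL replicate 2 (3094 UMIs) had 7 of Flt1 and 6 of Sele, genes of endothelium. Each is 1 cell and shows presence alone.

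The share of myeloid cells was higher in both BDL libraries than in both sham libraries. In sham replicate 1, 3 of 2863 cells were myeloid, a share of 0.105% (exact Clopper-Pearson 95% interval 0.0216 to 0.306%). In sham replicate 2 it was 4 of 3187 cells, 0.126% (0.0342 to 0.321%). In BDL replicate 1 it was 9 of 2089, 0.431% (0.197 to 0.816%), and in BDL replicate 2 it was 14 of 4065, 0.344% (0.188 to 0.577%). The groups did not overlap, but each BDL interval reaches below the upper end of each sham interval. The intervals cover counting error only.

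The mean share was 0.115% ± 0.0147 in sham and 0.388% ± 0.0611 in BDL (SD, n = 2), a difference of 0.273 percentage points. An exact permutation test, two-sided, gave p = 0.33, the smallest that 2 against 2 mice allow. A count of markers rises with depth, and BDL cells were deeper. With every cell thinned to 1000 UMIs and the minimum of 4 kept, the cells were 1 and 2 in sham against 6 and 11 in BDL, a difference of 0.227 points.

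Shares of the other classes moved the other way or were too small to read. The B class made up 0.594% (17 cells) and 0.439% (14 cells) of the sham libraries against 0.0957% (2 cells) and 0.0492% (2 cells) of the BDL libraries, a difference of -0.444 points (exact permutation p = 0.33). With Ebf1 left out of the markers, 1, 2, 1 and 0 cells remained in that class. All immune-marker cells together made up 0.699% and 0.659% in sham and 0.527% and 0.394% in BDL. That direction turned when Ebf1 was left out, to 0.140% and 0.282% in sham and 0.479% and 0.344% in BDL, and also when cells were thinned to 1000 UMIs with the minimum of 4. The single T cell gave a share of 0.0314% in its library, and 0 cells in the largest library, BDL replicate 2, allows a share of up to 0.0738% (3 counts of the total) or 0.0907% (upper end of the exact 95% interval).

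**Figure D2:**
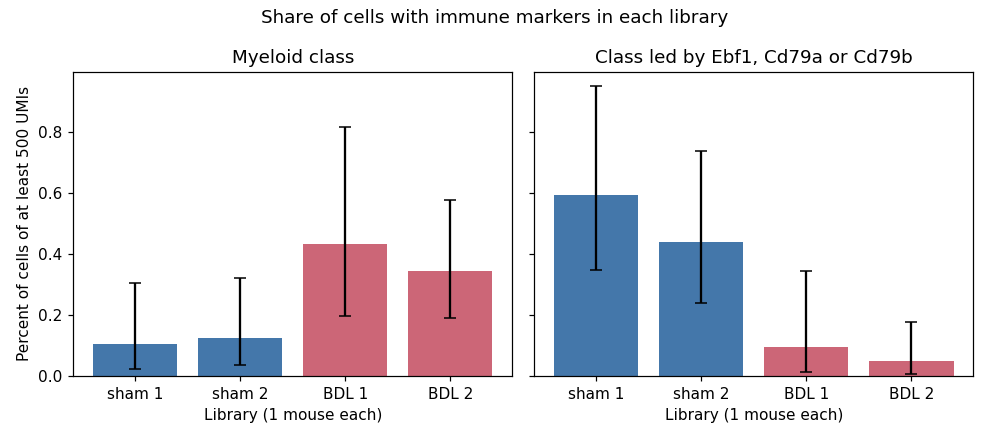
Bars give the percent of cells of at least 500 UMIs in the myeloid class and in the class led by Ebf1, Cd79a or Cd79b, for each library, with exact 95% intervals. The myeloid share was 0.105 and 0.126% in sham against 0.431 and 0.344% in BDL, and the other class ran the other way.

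Few cells sat at the edge of the rule. With 3 marker UMIs, just outside, were 6 cells, 5 of them of the B class in sham replicate 2 and 1 myeloid cell in BDL replicate 2. With 4 UMIs, just inside, were 10 cells, 3 of them myeloid. A further 145 cells reached 4 immune UMIs but held as many or more of other cell types. Of these, 69 had Ebf1 as their only immune marker, and 39 (11 in BDL replicate 1, 28 in BDL replicate 2) had at least 4 UMIs of myeloid markers. Among the 145, Csf1r had 3, 4, 56 and 135 UMIs in sham replicates 1 and 2 and BDL replicates 1 and 2, whereas Lyz2 had 2, C1qa had 1, and Adgre1 and C1qb had 0. Csf1r, the receptor for the macrophage growth factor CSF1, stood at 28.8 to 36.9 CPM in biliary cells of every library, so it was not specific to myeloid cells here. Lyz2, lysozyme, stood at 0 to 0.339 CPM in biliary cells against 556 to 1393 CPM in myeloid cells, a description of a rule gene. Pan-leukocyte genes outside the rule stood at 31.4 CPM in biliary cells of BDL replicate 2 (1014 UMIs, in 379 of 3836 cells) and at 9.28 to 13.1 CPM in those of the other libraries. The part of free RNA in these levels was not tested.

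The 30 myeloid cells held 16200, 8334, 35881 and 43975 UMIs in sham replicates 1 and 2 and BDL replicates 1 and 2. The deepest cell gave 62.6%, 45.9%, 34.7% and 17.5% of those sums. With 3 and 4 cells, a sham value can therefore be that of 1 cell. Levels below are UMIs of the summed myeloid cells, or CPM of all their UMIs, in the order sham replicate 1, sham replicate 2, BDL replicate 1, BDL replicate 2.

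C1q RNA was higher in both BDL sums than in both sham sums. C1qc, the only chain outside the rule, was in 9 of 9 and 8 of 14 BDL cells against 0 of 3 and 1 of 4 sham cells. It had 0, 1, 24 and 20 UMIs, or 60.0 ± 84.9 CPM in sham and 562 ± 151 CPM in BDL (SD, n = 2). The groups did not overlap, and with each cell thinned to 900 UMIs C1qc was seen in 0, 1, 5 and 6 cells. C1qa had 0, 4, 26 and 24 UMIs and C1qb had 0, 1, 28 and 40. Both are rule genes, and a UMI of any C1q chain was in 0, 2, 9 and 11 cells, given as a description.

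The edgeR fit of BDL against sham on myeloid sums called none of 424 genes at an adjusted p under 0.05 (0.0%), with 50 at an unadjusted p under 0.05. DESeq2 called 0 as well, with 21 unadjusted. In simulated sums of this size, the same fit recovered 0% of tested genes changed by 2 on the log2 scale and 98.3% of those changed by 4. Changes of the smaller size were thus not within its reach. The simulation gave every gene the same spread and no spread between cells. In the real sums Rgs1, fitted at 7.30 with adjusted p = 0.206 (edgeR), was not called. The 98.3% therefore does not show that changes of 4 would be called here. The result rests on the libraries used: 52 genes, Apoe and C1qc among them, were called without sham replicate 2, 4 without BDL replicate 2, 2 without BDL replicate 1 and 0 without sham replicate 1. Each of these fits leaves 1 library in a group, whose spread is taken from the other group, so its calls are no test of replicates. Keeping genes with at least 10 UMIs in at least 2 libraries gave 17 of 560 (3.04%). For C1qc the log2 difference was 3.56 ± 1.21 (SE), adjusted p = 0.358 (edgeR). With no filter on low counts 11 of 9755 passed, among them Apoe, Gpnmb, Rgs1, Lrp1 and Itga9, each with adjusted p = 0.0260 (edgeR). The 17 under the filter of 10 UMIs included Gpnmb, Rgs1, Itga9, Lrp1 and, with a lower level in BDL, Aoah. The first 4 met that filter only through the BDL libraries, so this is a description.

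**Figure D3:**
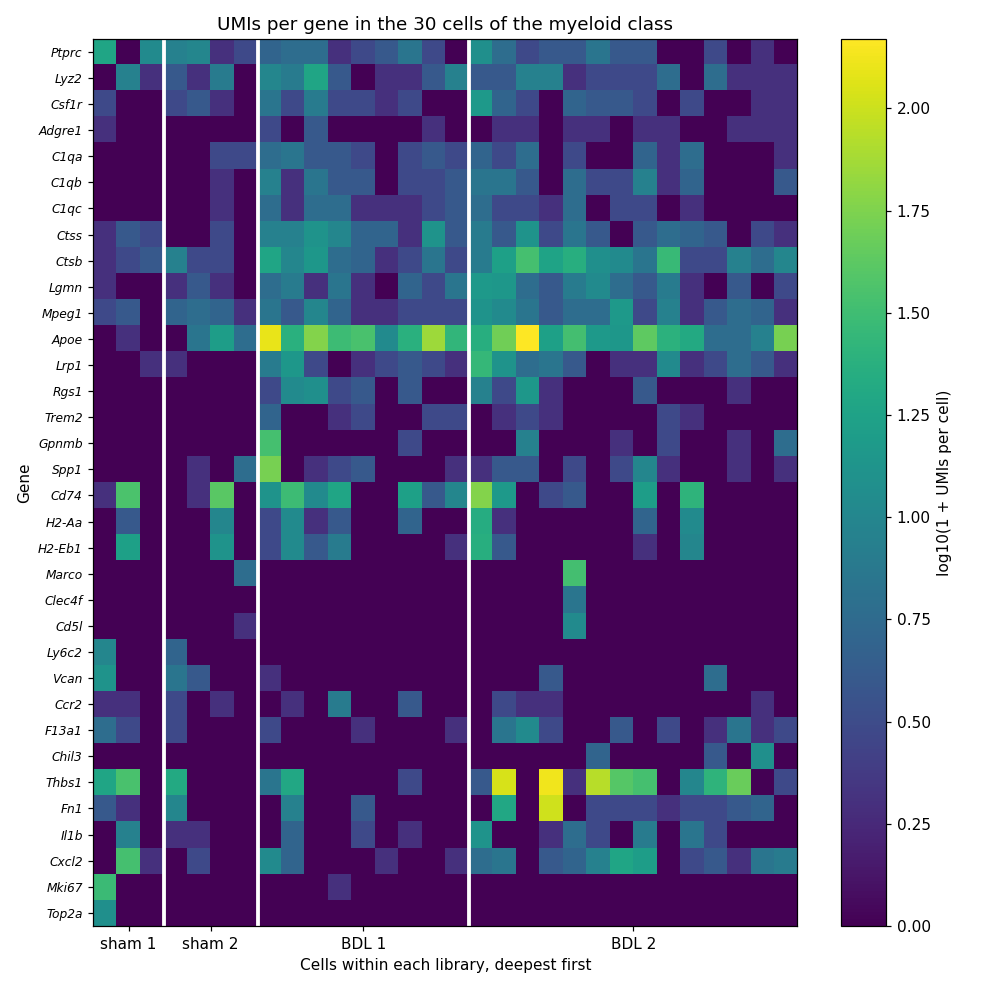
Each column is 1 of the 30 myeloid cells, grouped by library with the deepest first, and each row is a gene. Colour is log10(1 + UMIs). C1q and Apoe run through nearly all BDL cells, while Marco, Clec4f, Ly6c2, Mki67 and Chil3 each light up only 1 to 3 cells.

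Of 16 macrophage genes outside the rule, 7 were tested. No count or median over them is given, since C1qc, for one, passed the filter on low counts only through the BDL libraries. Ctss, a lysosomal protease of antigen processing, had 6, 2, 61 and 51 UMIs, or 305 ± 92.2 CPM in sham and 1430 ± 382 CPM in BDL (SD, n = 2). Both BDL libraries lay above both sham libraries, with a log2 difference of 2.13 ± 0.74 (SE), adjusted p = 0.358 (edgeR). Lgmn, the lysosomal protease legumain, had 1, 5, 32 and 73 UMIs, or 61.7, 600.0, 892 and 1660 CPM, again without overlap. Mpeg1, a pore-forming protein of phagocytes, had 309, 1680, 836 and 1796 CPM, so its groups overlapped.

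Mrc1 and Mertk were at 0 in both sham sums. Mrc1, the mannose receptor, had 0, 0, 8 and 15 UMIs, and Mertk, a receptor for dying cells, had 0, 0, 4 and 16. The 0 of 24534 UMIs in sham allows up to 122 CPM (3 UMIs over the group). Against that floor, the pooled counts of Mrc1 were at least 2.35-fold higher and those of Mertk at least 2.05-fold higher in BDL. Such floors, here and below, cover counting error of pooled cells alone. Spread between cells and mice is left out, and 16200 of the 24534 UMIs came from sham replicate 1. The values of Mrc1 and Mertk are counts of a few UMIs in 3 and 5 BDL cells. Stab1, the scavenger receptor stabilin-1, had 0, 2, 23 and 31 UMIs, the latter spread over 4 and 12 cells. Other scavenger receptors overlapped between groups: Msr1 had 0, 3, 4 and 7 UMIs and Cd36 had 3, 1, 2 and 9.

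Apoe, the apolipoprotein that macrophages secrete with cholesterol, was the most abundant gene of its list. It had 1, 26, 399 and 449 UMIs, or 61.7, 3120, 11120 and 10210 CPM. Every BDL cell had an Apoe UMI (9 of 9 and 14 of 14), against 1 of 3 and 3 of 4 sham cells. The sham libraries differed from each other by far more than the BDL libraries did. The log2 difference was 2.87 ± 1.17 (SE), adjusted p = 0.365 (edgeR), and leaving out sham replicate 1 gave 1.94, and leaving out sham replicate 2 gave 7.39, set against the 1 Apoe UMI of the remaining sham library. Abca1, the pump that loads cholesterol onto apolipoproteins, had 0, 12, 56 and 98 UMIs. Lrp1, a receptor that takes up apolipoprotein E, had 1, 1, 31 and 77 UMIs, or 90.9 ± 41.2 CPM in sham and 1307 ± 627 CPM in BDL (SD, n = 2). Its log2 difference was 3.86 ± 0.92 (SE), adjusted p = 0.206 (edgeR), and the BDL UMIs were spread over 8 and 13 cells.

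Of 14 genes on the lipid-associated macrophage list outside the rule, 6 were tested, and Gpnmb and Ctsd were among them only through their BDL levels. Gpnmb, a glycoprotein of lysosome-rich macrophages, had 0, 0, 35 and 17 UMIs, at least 5.33-fold higher in the BDL sums against the floor of 3 UMIs over the sham group. In BDL replicate 1, however, 33 of the 35 UMIs came from 1 cell of 12453 UMIs, which also held 118 UMIs of biliary genes. Trem2, a lipid-sensing receptor, had 0, 0, 11 and 7 UMIs in 5 and 5 BDL cells. A UMI of Trem2 or Gpnmb was in 6 of 9 and 8 of 14 BDL cells and in 0 of 3 and 0 of 4 sham cells. Ctsb, the protease cathepsin B, had 370, 1440, 1672 and 4002 CPM, and Ctsd, cathepsin D, had 309, 240.0, 1003 and 932 CPM, both without overlap.

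Spp1, osteopontin, had 0, 6, 59 and 23 UMIs in myeloid cells. It is also among the strongest biliary genes, at 4553 to 5391 CPM in biliary cells of the 4 libraries. The cell of 12453 UMIs held 118 of the 127 UMIs of the biliary list, which includes Spp1, in BDL replicate 1, and 52 of its 59 Spp1 UMIs. The part of biliary RNA in the Spp1 value was not tested.

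**Figure D4:**
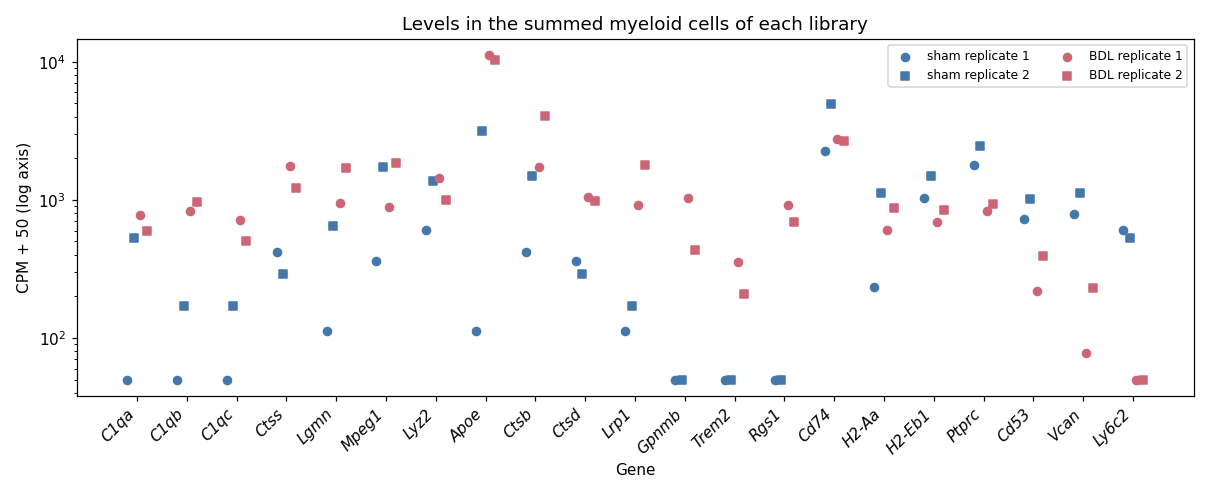
Points give CPM + 50 of the summed myeloid cells on a log axis, blue for sham and red for BDL, circles for replicate 1 and squares for replicate 2. C1qc, Ctss, Lrp1 and Ctsd lie higher in both BDL libraries, Vcan and Cd53 lie lower, and Cd74 and Lyz2 overlap.

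Rgs1, Itga9 and Dgkz, which no list held, also had 0 UMIs in both sham sums. Rgs1, which dampens chemokine receptor signals in leukocytes, had 0, 0, 31 and 28 UMIs in 6 and 6 BDL cells. Against the same floor for pooled counts, it was at least 6.04-fold higher in BDL. Itga9, an integrin chain, had 0, 0, 27 and 25 UMIs in 6 and 8 cells, at least 5.33-fold higher. Dgkz, a diacylglycerol kinase, had 0, 0, 16 and 24 UMIs in 8 and 10 cells, at least 4.10-fold higher. The adjusted p was 0.206 for Rgs1 and Itga9 and 0.208 for Gpnmb (edgeR). All 3 were named after their values were seen.

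MHC class II, which presents antigen to T cells, was concentrated in some of the myeloid cells in every library. At least 3 UMIs summed over H2-Aa, H2-Ab1 and H2-Eb1 were in 1 of 3, 1 of 4, 6 of 9 and 4 of 14 cells. Cd74, the class II invariant chain, had 36, 41, 98 and 116 UMIs, or 3571 ± 1907 CPM in sham and 2685 ± 66.0 CPM in BDL (SD, n = 2). H2-Eb1 had 988, 1440, 641 and 796 CPM, lower in both BDL libraries, whereas Cd74, H2-Aa and H2-Ab1 overlapped between groups. Of the 10 class II genes, 4 were tested. The cell with most class II UMIs was in BDL replicate 2, with 119 of its 7676 UMIs on the list. It also had 27 UMIs of Cd83, a marker of mature dendritic cells. A cell of sham replicate 2 had 71 of its 1643 UMIs on the list, a larger part.

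Marco, Cd5l, Clec4f and Vsig4, taken from the 12 genes of the Kupffer cell list after their values were seen, had at least 2 UMIs in 2 of the 30 cells. One of BDL replicate 2 (2880 UMIs) held 32 UMIs of Marco, 10 of Cd5l, 10 of Fcna, 6 of Clec4f and 5 of Vsig4. One of sham replicate 2 (936 UMIs, of which 9.94% were mitochondrial) held 5 UMIs of Marco and 2 of Fcna, with Clec4f and Vsig4 at 0. Over the whole list, the first of these held 68 UMIs and the second 6. Another cell of BDL replicate 2 (4622 UMIs) held 32 UMIs of the list, 22 of them of Hmox1, a heme oxygenase. In sham replicate 1 and BDL replicate 1, the libraries without a label contradiction, Marco, Clec4f and Vsig4 were at 0.

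Monocyte genes lay the other way for some members. Ly6c2, a surface protein of inflammatory monocytes, had 9, 4, 0 and 0 UMIs, at least 14.1-fold lower in the BDL sums against 3 UMIs over the 79856 of that group. Each sham value came from 1 cell. Vcan, a matrix proteoglycan of monocytes, had 12, 9, 1 and 8 UMIs, or 910 ± 240 CPM in sham and 105 ± 109 CPM in BDL (SD, n = 2), in 1, 2, 1 and 2 cells. Its log2 difference was -3.01 ± 0.84 (SE), adjusted p = 0.225 (edgeR). Ccr2, the receptor that draws monocytes out of marrow, had 124, 360.0, 307 and 114 CPM and overlapped. F13a1, a clotting factor of monocytes and some macrophages, overlapped as well with 432, 240.0, 112 and 750 CPM.

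Of 14 pan-leukocyte genes outside the rule, 7 were tested in the edgeR fit that called none of 424. Srgn, the granule proteoglycan serglycin, had 494, 720, 669 and 1273 CPM. Cd53, a leukocyte tetraspanin, had 679, 960, 167 and 341 CPM without overlap, a log2 difference of -1.65 ± 0.69 (SE), adjusted p = 0.365 (edgeR). Ptprc, a rule gene, had 1728, 2400, 780 and 887 CPM. Gda, guanine deaminase, had 1914, 1560, 139 and 591 CPM, with a log2 difference of -2.28 ± 0.75 (SE), adjusted p = 0.339 (edgeR).

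Some genes, chosen after their values were seen, differed between the 2 BDL libraries, with no test. Thbs1, the matrix protein thrombospondin-1, had 3210, 2400, 753 and 10960 CPM, and at least 10 UMIs of it were in 1 of 9 cells of BDL replicate 1 but 7 of 14 of BDL replicate 2. Fn1, fibronectin, had 247, 1080, 307 and 3161 CPM. Of the 139 Fn1 UMIs in BDL replicate 2, 102 came from 1 cell of 3977 UMIs. Chil3, a chitinase-like protein, had 0, 0, 0 and 18 UMIs, in 3 cells. Chst11, a chondroitin sulfotransferase, had 15, 1, 5 and 91 UMIs, and Cmss1 ran the other way with 81, 106, 1547 and 198. Cx3cr1, the fractalkine receptor, leaned to the other replicate with 124, 120.0, 613 and 91.0 CPM, and its UMIs were in 7 of 9 cells of BDL replicate 1. Of the 11 cells with at least 10 Thbs1 UMIs, 3 also had at least 5 C1q UMIs, whereas 14 of all 30 cells had that much C1q.

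Il1b and Cxcl2 did not separate the groups. Il1b, the inflammatory interleukin-1β, had 494, 240.0, 195 and 796 CPM, and Cxcl2, a neutrophil chemokine, had 2099, 240.0, 446 and 1774 CPM. In BDL replicate 2, Cxcl2 was in 12 of 14 cells. Cxcl2 reached similar levels in biliary cells, with 449, 454, 1752 and 1292 CPM. Tnf had 2, 0, 0 and 4 UMIs. C5ar1, the receptor for the complement fragment C5a, had 0, 0, 8 and 15 UMIs, at least 2.35-fold higher in BDL against the floor for pooled counts. Igf1, a growth factor of repair macrophages, had 0, 0, 10 and 8 UMIs in 5 and 5 cells.

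Cell cycle genes were concentrated in 1 myeloid cell and 1 cell of the B class. A sham replicate 1 cell of 10146 UMIs held all 29 Mki67 UMIs and all 11 Top2a UMIs of that library, with 9 of Ly6c2 and 13 of Mpo, the granule enzyme of myeloid precursors. In the BDL myeloid cells, Mki67 had 1 UMI and Top2a had 0. In BDL replicate 1, a cell that 1 UMI of Cd79a put in the B class (6231 UMIs) held 22 UMIs of the proliferation list, 77 of class II genes, 17 of Il1b and 38 of pan-leukocyte genes.

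Summed over all 68 cells, mesenchymal genes such as Col3a1 fell and macrophage genes such as Ctss rose in the BDL libraries. Those libraries held fewer Ebf1-led cells and more myeloid cells. Col3a1 and Ctss passed the filter on low counts only through the group where they were high, so this is a description. In a sum, fewer cells of a type and less RNA per cell cannot be told apart. The edgeR fit of BDL against sham called 279 of 1252 genes (22.3%), 96 higher (7.67%) and 183 lower (14.6%), whereas with Ebf1 left out of the markers it called 1 of 528 (0.189%), Ebf1 itself, and 61 had an unadjusted p under 0.05. DESeq2 called 192 genes, 188 of them among the 279 in the same direction. Without sham replicate 1 the count was 51, and without BDL replicate 1 it was 472.

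The 10 largest falls without overlap between groups all had 0 UMIs in both BDL sums. Among them, C7, a complement component, had 74, 31, 0 and 0 UMIs in the 68 cells, and Serping1, the C1 inhibitor, had 67, 35, 0 and 0. All 10 passed the filter on low counts only through the sham libraries, so their falls are a description. Ccbe1 had 59, 21, 0 and 0 UMIs, Abcc9 had 59, 18, 0 and 0, and Fbn1, fibrillin-1, had 26, 21, 0 and 0. Beside 14.6% of all 1252 genes called lower, 3 of 4 tested mesenchymal genes fell: Col1a1, Col3a1 and Dcn. The list held 8 genes. These 3 passed the filter on low counts only through the sham libraries, so the count is a description. Among stress genes, Fos, Fosb, Jun and Egr1 fell, 4 of 8 tested, beside the same 14.6%. In the myeloid sums alone, Fos, Fosb and Jun were fitted higher in BDL (log2 0.64, 1.44 and 1.82), with none called. In the 68 cells, Rora, a nuclear receptor on the innate lymphoid list, and Bicc1, on the biliary list, fell as well. Ebf1-led cells numbered 13, 11, 1 and 1 by library, and their part in these falls was not tested.

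Rises were called in the macrophage, lipid-associated, class II and other lists, beside genes on no list such as Rgs1 and Dgkz. Against 7.67% of all 1252 genes called higher, 5 of 7 tested macrophage genes rose: C1qc, Cd14, Ctss, Mpeg1 and Lgmn. Of 10 tested genes of the lipid-associated list, 7 rose, namely Gpnmb, Cd9, Spp1, Lgals3, Ctsd, Ctsb and Apoe. Spp1 is on the biliary list too, where it was the 1 riser of 2 tested. In BDL replicate 1, 52 of its 60 UMIs and 33 of the 35 of Gpnmb came from the cell with 118 biliary UMIs. Of 4 tested class II genes 3 rose, H2-Aa, H2-Ab1 and Cd74, and of 8 tested pan-leukocyte genes 1 rose, Fcer1g. The rule genes C1qa, C1qb, Csf1r, Lyz2 and Ebf1 are also among the 279 calls. The filter on low counts let C1qc, Cd14, Ctss, Lgmn, Gpnmb, Cd9, Spp1, Lgals3, Ctsd and Fcer1g in only through the BDL libraries. These counts are therefore a description, not a test against the share of all genes. Myeloid cells made up 3 of 20, 4 of 21, 9 of 11 and 14 of 16 cells. Il1b and Cxcl16, the chemokine that binds Cxcr6, rose as 2 of 4 tested cytokine genes, and both passed the filter only through the BDL libraries. With Ebf1 left out, C1qc, Ctss, Lgmn and Gpnmb were not called but kept their direction. Their log2 differences were 3.82, 1.75, 2.58 and 7.19, with adjusted p of 0.242, 0.304, 0.242 and 0.131 (edgeR). Gpnmb had 0 and 1 sham UMIs in the 68 cells, so its fitted value is no measure of size. Of the 279 calls, 66 were tested in that fit, 62 kept their sign and 1, Ebf1, was still called.

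Myeloid and biliary cells of the same livers were compared for how each changed. An edgeR interaction fit of BDL against sham between myeloid cells and 10630 biliary-marker cells, with the mouse as a block, called 14 of 13338 genes (0.105%). This contrast with myeloid cells was added after the data were seen. The planned fit with all 68 cells called 239 of 13833 (1.73%), 91 with a higher change in members (0.658%) and 148 with a lower one (1.07%), or 30 of 13391 (0.224%) with Ebf1 left out. Leaving out sham replicate 1, sham replicate 2 or BDL replicate 2 lowered the 239 to 66, 159 and 105. In biliary cells alone, 4059 of 16055 genes were called (25.3%).

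Apoe had the smallest adjusted p among the 14, and its fitted changes went opposite ways. In biliary cells it had 1688, 1517, 217 and 130 CPM, and fell by 3.19 ± 0.25 (SE) on the log2 scale, adjusted p = 0.000823 (edgeR). In myeloid cells it had 61.7, 3120, 11120 and 10210 CPM. That change alone was not called, at a log2 difference of 2.87 ± 1.17 (SE), adjusted p = 0.365 (edgeR). The difference of the 2 changes was 7.60 ± 1.12 (SE), adjusted p = 1.486e-07 (edgeR). This fit took a single spread per gene from biliary and myeloid sums together, though the myeloid sums hold far fewer cells. Its SE of 1.12 was below the 1.17 of myeloid cells alone, so the p-values of this fit can be too small. After ligation Apoe was 11120 and 10210 CPM in myeloid cells where biliary cells had 217 and 130.

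Jun, an immediate early transcription factor, had 2010, 2836, 568 and 496 CPM in biliary cells and 124, 360.0, 725 and 841 CPM in myeloid cells, without overlap in either. The difference was 4.88 ± 1.08 (SE), adjusted p = 0.00877 (edgeR). Lrp1 differed by 5.51 ± 1.07 (SE), adjusted p = 0.000659, with 52.3, 57.8, 27.9 and 35.8 CPM in biliary cells (edgeR). Ctss differed by 4.24 ± 0.94 (SE), adjusted p = 0.00972 (edgeR), and stood at 0.866 to 5.13 CPM in biliary cells against 240.0 to 1700 CPM in myeloid cells. The many biliary cells still held 49, 10, 29 and 28 Ctss UMIs in all. In the planned fit with all 68 cells, Apoe (5.66) and Ctss (4.86) were also called. Lrp1 (1.33, adjusted p = 0.294, edgeR) and Jun (0.53) were not.

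**Figure D5:**
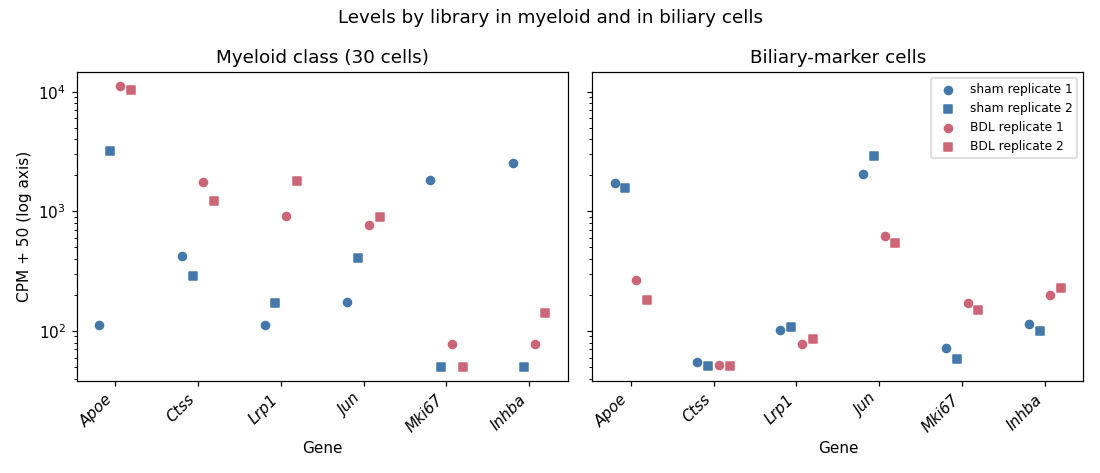
Points give CPM + 50 on a log axis for 6 genes, with myeloid cells on the left and biliary-marker cells on the right, coloured by group and shaped by replicate. Apoe and Jun are higher in BDL among myeloid cells and lower in BDL among biliary cells, while the sham replicate 1 points of Mki67 and Inhba each come from 1 myeloid cell.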

How the data were processed

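Single-cell RNA-seq of 4 mouse liver libraries was made by split-pool barcoding of fixed cells with random hexamer and oligo(dT) primers, per the labels' protocols. The authors deposited raw UMI counts per gene and cell, and cell tables with counts of transcripts, genes and reads, per the file headers. The build is GRCm39, per the submitters' processing notes; the counting software and any removal of doublets are not given in the sources used here. No doublet caller was run, and no coordinates or sequences are given.

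Each cell's UMI sum equalled the cell table in all 12211 cells; 12204 held at least 500 UMIs. Members and gene lists were chosen with earlier results of these data known. UMIs were summed per library and class and tested with edgeR 4.0.16 (R 4.3.3): two-sided quasi-likelihood F test after TMM scaling and filterByExpr, with Benjamini-Hochberg adjustment over all genes tested and a threshold of 0.05. DESeq2 1.42.0 was an alternative. SE were derived from the F statistic. The interaction fit compared the change in member sums with that in sums of biliary-marker cells, with the mouse as a block. The fits of all members, of myeloid cells and of all members against biliary cells were tested on simulated sums; the biliary fit and the comparison of myeloid with biliary cells were not. CPM in the text are of all UMIs of the summed cells. Shares carry exact 95% intervals and an exact permutation test.

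Genes were named if they were rule genes, if they were among the largest called rises or falls without overlap (up to 10 each way in the fit of all members and 5 in the myeloid fit), if they were among the 4 most abundant of a list, or if they were called list members. Others were chosen after their values were seen. Alternatives changed the marker minimum, the marker genes, the depth, the filter, the normalization, the tool and the libraries. Some items are not reported here.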

Additional observations from a re-analysis of the deposited data

Results flagged for a closer look

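The change from sham to BDL differed between myeloid and biliary cells for 14 genes (edgeR interaction, values on the log2 scale, positive where myeloid cells changed more upward). Apoe differed by 7.60, Lrp1 by 5.51, Jun by 4.88 and Ctss by 4.24. Their sham myeloid UMIs were 1 and 26 for Apoe, 1 and 1 for Lrp1, 2 and 3 for Jun, and 6 and 2 for Ctss. The fitted sizes thus rest on few sham counts. Bach2 differed by 5.83, with 0, 1, 18 and 28 myeloid UMIs. In the planned fit with all 68 cells, Lrp1, Jun, Bach2, Arhgap24, Top2a and Wsb1 were not called.

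For 6 genes both sham myeloid sums were at 0, so the fitted value depends on the prior count and is no measure of size. These were Itga9 (16.28), Zdhhc14 (16.53), Tex14 (15.98), Arhgap24 (15.49), Tmtc2 (14.92) and Wsb1 (14.77). Their BDL myeloid UMIs were 27 and 25 for Itga9, 13 and 25 for Zdhhc14, 3 and 32 for Arhgap24, 10 and 27 for Tmtc2, 12 and 19 for Wsb1, and 2 and 19 for Tex14.

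For 3 genes myeloid cells changed more downward: Mki67 by -8.11, Top2a by -15.39 and Inhba by -4.89. Top2a was at 0 in both BDL myeloid sums, so its value too is no measure of size, and Mki67 had 1 UMI there. Each rested on 1 sham replicate 1 cell, which gave 29 UMIs of Mki67 and 11 of Top2a, and on another that gave 40 UMIs of Inhba.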

How the results depend on the processing

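The myeloid share kept its direction under all 13 alternatives run (0.218 to 0.316 percentage points), and leaving out 1 library gave 0.229 to 0.316. The share of all members turned to 0.201 points with Ebf1 left out and to 0.160 with cells thinned to 1000 UMIs at a minimum of 4. The causes were not tested.

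The 279 calls over all members became 139 with a minimum of 6 marker UMIs, 1 with Ebf1 left out, 84 with at most 1 UMI of other cell types' markers and 439 with no filter on low counts. Leaving out 1 library gave 51 to 472. The 0 calls in myeloid cells became 11 with no filter, 17 with at least 10 UMIs in at least 2 libraries and 2 with sums thinned to the shallowest, and leaving out 1 library gave 0 to 52. The 239 calls against biliary cells became 30 with Ebf1 left out, 75 with at most 1 UMI of other markers and 14 with myeloid cells in place of all members, and leaving out 1 library gave 66 to 196. The myeloid interaction was not repeated with libraries left out. For single genes, 311 values kept their side of the threshold, 12 lost their call, 21 gained one and 0 turned.

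An alternative added after seeing the data, leaving out the deepest cell of each library, gave 207 calls over all members and 0 in myeloid cells. No paired analysis was possible because replicate numbers here only follow sample order. Depth limits every myeloid value to sums of 8334 to 43975 UMIs.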
